A study of Mus musculus with 7 samples.

Results

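The 36 genes described here encode the heat shock proteins of the cytosol and the mitochondria with their closest partners. They comprise members of the HSP70, HSP110, HSP90, HSP40 and small HSP families, 3 HSP90 co-chaperones, 2 BAG proteins, the mitochondrial chaperones and the transcription factors Hsf1 and Hsf2. The list takes genes by name, with no threshold on their values, but it was chosen with earlier results of these data known. A gene was taken as measured where a row of the array table carried its symbol and no other, and the row of highest mean log2 intensity stood for it. By this rule 33 of the 36 had a row, among 19938 genes with one, and 32 passed a filter that kept 12102 genes whose intensity reached the array's median on at least 1 array. Dnajb6 had a row that stayed below the filter. Hspa1b shared its row with Hspa1a, and Hsp90ab1 and Hsf1 had no row of their own.

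The samples were left plantaris muscles of male C57BL/6J mice, 5 months old, whose hind limbs had been suspended for 2 weeks. The muscle was taken when suspension ended (d0, labelled the control) or after 1, 3, 5, 7, 10 or 14 days of walking on the limbs again (d1 to d14). Every group had been suspended, and no group of mice that had never been suspended was analysed here. Each time point was 1 Affymetrix Mouse Gene 1.0 ST array with RNA pooled from 6 animals, so ratios of single arrays come with neither a replicate error nor a p-value, and precision is limited to what 7 arrays give. Ratios below are on the log2 scale and relative to d0 unless stated, and values listed in order run d0, d1, d3, d5, d7, d10, d14.

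Heat shock proteins hold other proteins in a foldable state. HSP70 proteins bind exposed hydrophobic stretches, HSP40 (J-domain) proteins bring the substrate and start ATP hydrolysis, and HSP110 and BAG proteins exchange the nucleotide, while HSP90 acts later with its co-chaperones and small HSPs hold unfolded protein without ATP. In muscle fibres several small HSPs and BAG3 sit at the Z-disc, and inducible members are switched on through heat shock elements, inverted repeats of the unit GAA in the promoter that trimers of the heat shock factor HSF1 bind.

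Because these elements are known for the inducible members, the promoters of the listed genes were searched for them. Searched were 2 spellings of 2 adjoining units, GAANNTTC and TTCNNGAA, and 3 units. In the 3-unit patterns both spellings follow each other with 3 letters in common, so that a 3-unit match contains 2-unit ones. N stands for any base. These patterns read on the other strand as themselves or each other, so both strands were covered. The windows were those of RefSeq (GRCm38.p6), from 250 bases before to 50 bases after a gene's start, and 29 of the 36 genes were in that table. Not in it were Hspa8, Hspa9, Hsp90aa1, Hsp90ab1, Hspb2, Cryab and Hsf1. The 2-unit letters were in the windows of 15 of the 29 genes (51.7%), against 15.1% of all 32851 windows and 13.6% of 9642 genes past the filter. The 3-unit letters were in 5 of the 29 (17.2%), against 0.603% of all windows. The 5 were Hsph1, Chordc1, Hspd1, Hspe1 and Dnajb6, of which Hspd1 and Hspe1 are divergent neighbours on chromosome 1 that share the site. A match is a spelling only, and binding was not measured.

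The stretches below, 5′ to 3′ on the strand of the gene, are shown for 6 genes: 5 that were at least 2-fold higher at d1 than at d0, and Hspe1 for its unbroken run of units. Capitals mark the matched letters. For Hspa1a all 250 bases before the start are given.
Hspa1a, chr17:34972157-34972406, minus strand: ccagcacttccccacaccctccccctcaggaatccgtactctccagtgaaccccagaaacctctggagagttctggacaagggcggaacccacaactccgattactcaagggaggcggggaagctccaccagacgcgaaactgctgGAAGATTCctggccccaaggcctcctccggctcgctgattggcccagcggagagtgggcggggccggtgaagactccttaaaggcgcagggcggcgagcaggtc
Hspb1, chr5:135887787-135887844, plus strand: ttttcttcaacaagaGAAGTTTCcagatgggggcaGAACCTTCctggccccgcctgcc
Hsph1, chr5:149636356-149636375, minus strand: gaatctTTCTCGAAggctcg
Hsph1, chr5:149636287-149636306, minus strand: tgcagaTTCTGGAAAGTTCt
Chordc1, chr9:18292260-18292288, plus strand: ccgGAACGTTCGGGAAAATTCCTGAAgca
Chordc1, chr9:18292294-18292313, plus strand: ggcggcTTCCGGAAgctagc
Hspe1, chr1:55088053-55088082, plus strand: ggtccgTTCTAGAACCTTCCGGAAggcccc
Dnaja4, chr9:54699463-54699482, plus strand: ctccgcGAACGTTCtgggcc
Dnaja4, chr9:54699501-54699520, plus strand: ctggcgGAACCTTCcgccgg
Hspa1a held a single 2-unit match, 104 to 97 bases before its start. The window of Hspa1b had the same match at the same place, and 296 of the 300 positions of both windows were identical (98.7%). Hspb1 and Dnaja4 each held 2 such matches before the start. In Chordc1 the matched letters ran across the start, and the matches of Hsph1 lay on either side of it.

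**Figure D1:**
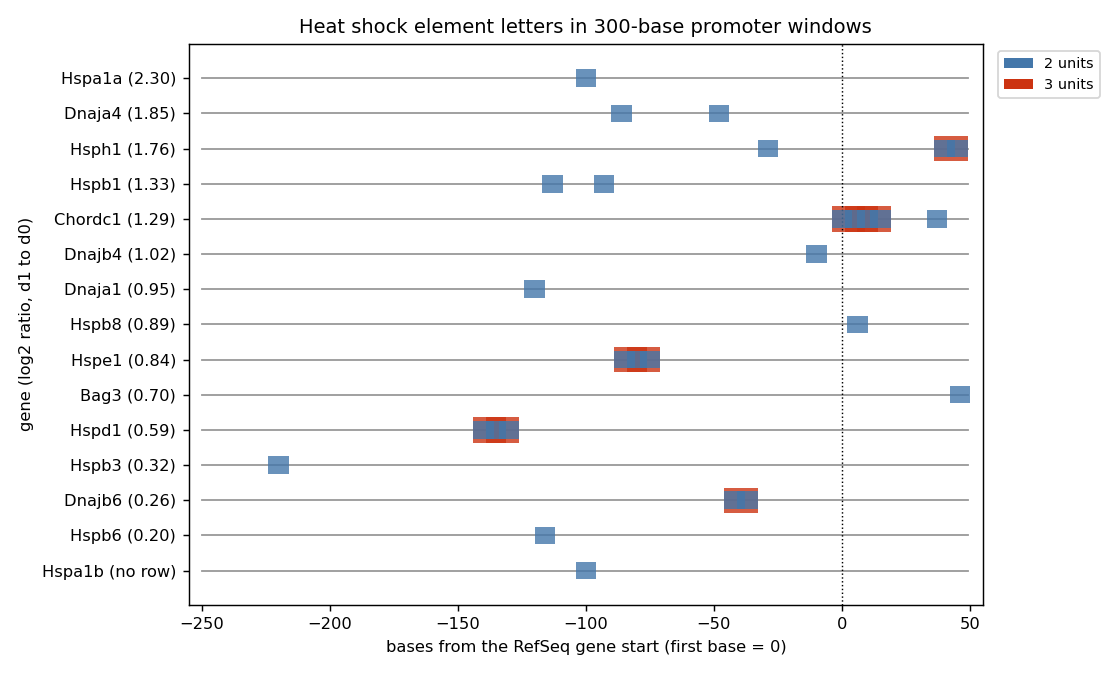
Position of the heat shock element spellings in the promoter windows of the 15 genes that hold any, in bases from the gene's start, with 1 line per gene, blue for 2 units and red for 3, and the d1 ratio in brackets. Where a gene had several windows, the first with a match is drawn, and most genes hold a match before the start.

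On the array as a whole, the median intensity lay between 128.1 and 131.8. The d0 array stood somewhat apart, with a mean Spearman rho of 0.972 to the other arrays against 0.984 to 0.989 for those. Values are therefore also given against d14. The 10 muscle fibre markers were all past the filter and summed to between 144429 (d3) and 155244 (d0) on the 7 arrays. At d1 the sum was 145412, and 9 of the 10 were lower than at d0. The summed level of 11 measured macrophage markers, of which Cd14 and Cd163 were below the filter, was 4158.4 at d0, 6240.8 at d1 and 3752 at d14. That of 11 neutrophil markers was 1721.2 at d0, 3350.9 at d1 and 9788 at d10. That of 6 endothelial markers was 4265.8 at d0 and 5478.6 at d1. For 6 fibroblast markers it was 13660.8 at d0 and 12560.6 at d1, though 4 of the 6 were higher at d1. Sums at d0 and d1 were 847.5 and 924.4 for satellite cells, 769.7 and 947.3 for adipocytes, and 468.1 and 529.2 for Schwann cells. T and B cell markers, mostly below the filter, summed to 348.4 and 361.2, and Alas2 of red cells had 1486.4 and 1340.5. The part of these cells in the values below was not tested. In a whole muscle, more cells of a type and more RNA per cell cannot be told apart.

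All 33 measured genes were higher at d1 than at d0, with a median log2 ratio of 0.66, against 0.10 over all genes past the filter, of which 70.9% were higher. After quantile normalization 32 of the 33 were higher (64.0% of all genes), and Dnajb5 was at -0.035. At least 2-fold higher were 9 of them: Hspa1a, Dnaja4, Hsph1, Hsp90aa1, Hspb7, Hspb1, Chordc1, Dnajb1 and Dnajb4. The share of all genes past the filter that reached 2-fold was 0.653%. No member was 2-fold lower on any day, where 0.372%, 0.281%, 0.314%, 0.289%, 0.355% and 0.322% of all genes were from d1 to d14. The number at least 2-fold above d0 was 5 at d3 (all genes 0.413%), 3 by d5 (0.182%), 1 on d7 (0.19%), 2 on d10 (0.438%) and 1 at d14 (0.0661%). From d3 to d14 the median ratio of the 33 was 0.33, 0.29, 0.20, 0.27 and 0.20. Over all genes past the filter it was 0.066, 0.048, 0.075, 0.096 and 0.076.

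**Figure D2:**
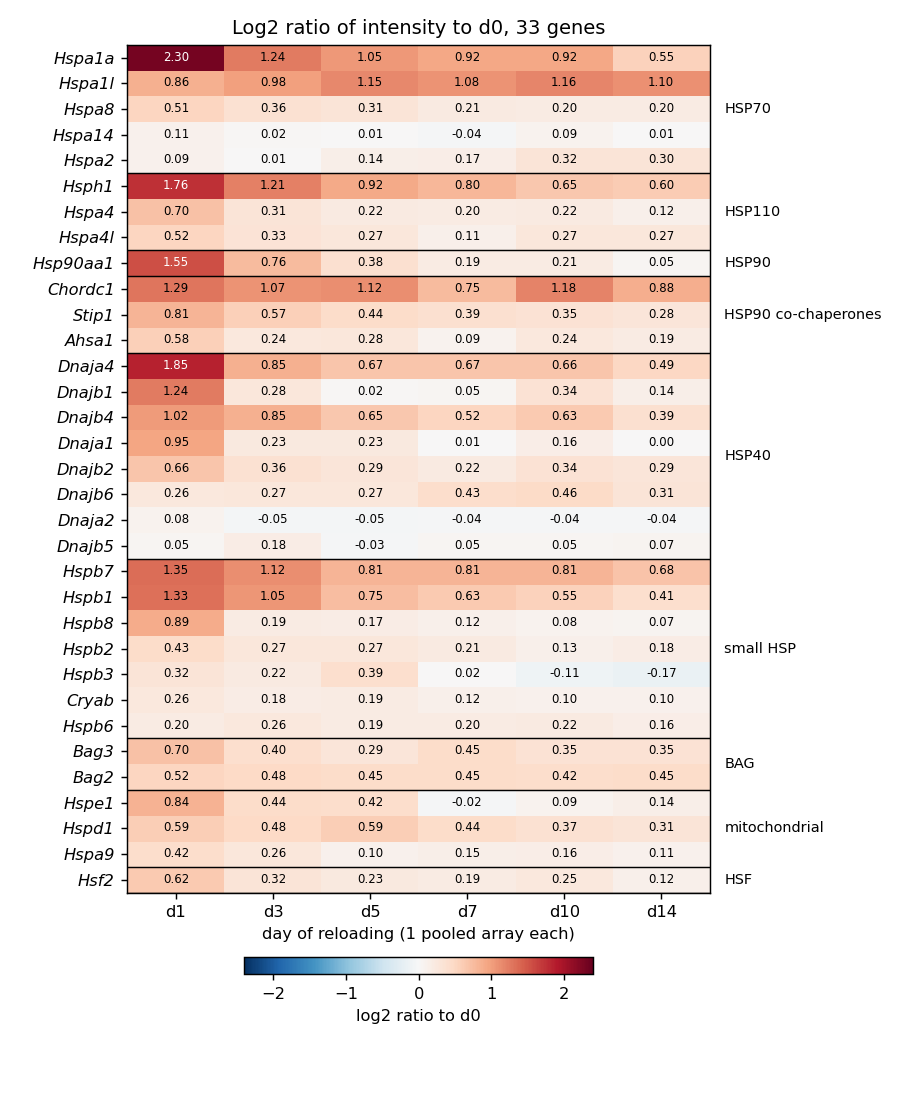
Log2 ratio of intensity to d0 for the 33 measured genes (lines) on the 6 later arrays (columns), grouped by family, with red for higher and blue for lower. The d1 column is the darkest for most genes, and Hspa1l keeps its colour to d14.

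The d1 array was the highest of the 7 for 26 of the 33 genes (28.3% of all genes), and d0 was the lowest for 28 (39.0% of all genes). The 7 with their highest value on another day were Dnajb5 and Hspb6 (d3), Hspb3 and Hspd1 (d5), and Hspa1l, Hspa2 and Dnajb6 (d10). Hspd1 was nearly equal at d5 (2211.8) and d1 (2204.9), and its other row was highest at d1 (1738.0, with 1678.3 at d5). With the mean of a gene's rows, d1 was the highest for 27 of the 33. A lowest d0 and a highest d1 held together for 23 of the 33, against 12.1% of all genes. From d1 to d3, 29 of the 33 were lower at the later day (54.2% of all genes), with a median change of -0.21. Set against d14 instead of d0, 5 members were past 2-fold at d1: Hspa1a, Hsp90aa1, Dnaja4, Hsph1 and Dnajb1 (0.388% of all genes). The median of the 33 against d14 was 0.39 at d1, 0.15 at d3 and 0.036 at d7. The d1 values of these 5 genes were thus high by either reference. The other 4 genes past 2-fold against d0 were higher at d1 than at d14 by 0.92 (Hspb1), 0.67 (Hspb7), 0.63 (Dnajb4) and 0.41 (Chordc1).

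**Figure D3:**
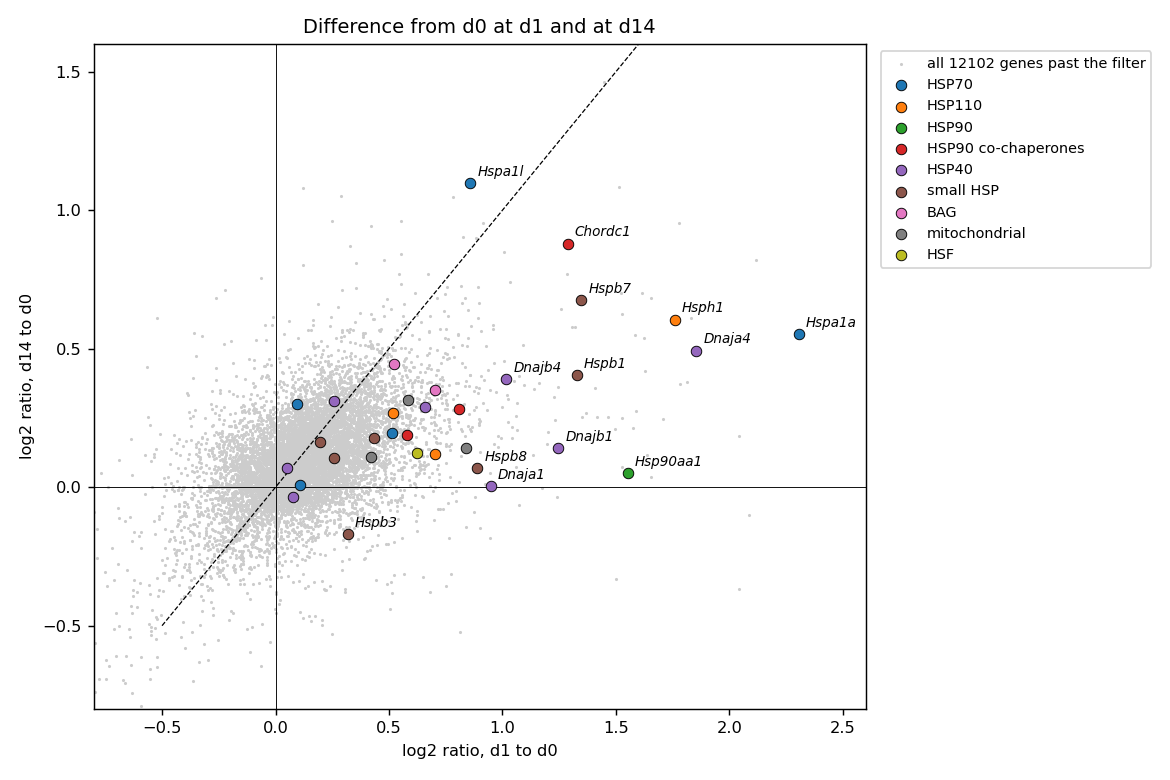
Log2 ratio of intensity at d1 (x axis) and at d14 (y axis), both to d0, with 1 large point per measured gene coloured by family, grey points for all genes past the filter within the axes, and a dashed line where both ratios are equal. Points at the lower right were high at d1 and near d0 at d14, such as Hsp90aa1 (1.55 and 0.050), and Hspa1l lies highest (0.86 and 1.10).

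A trend over the later days was tested with limma, as a straight line of log2 intensity on log2(day + 1) over the 6 arrays from d1 to d14. Hspb1, Hsph1, Hsp90aa1 and Stip1 fell, 4 of 32 members tested, against 24 of all 12102 genes (0.198%). Their slopes per doubling of day + 1 were -0.33 ± 0.0205 (SE) with a limma adjusted p of 0.00870 for Hspb1, -0.41 ± 0.0388 with 0.0469 for Hsph1, -0.51 ± 0.0652 with 0.0469 for Hsp90aa1 and -0.18 ± 0.0230 with 0.0480 for Stip1. Leaving out any time point left none of the 4 called, except Hspb1 without d5, and with time as day or as rank in place of log2(day + 1) no member was called. The slope was negative for 30 of the 32 members, 23 of them with an unadjusted p under 0.05 (6.39% of all genes). The median slope was -0.12 over the members tested and -0.0022 over all genes past the filter. Positive were Hspa1l and Hspa2, each with 0.093 and an unadjusted p under 0.05 (6.88% of all genes), and neither passed the adjusted test (limma adjusted p 0.251 and 0.279), which 0.157% of all genes passed with a positive slope. Over the 7 arrays from d0 to d14 no member passed in either direction, nor did any of the 12102 genes (0.0%). At an unadjusted p under 0.05, 2 members had positive slopes there, again Hspa1l and Hspa2 (all genes 9.19%), and none had a negative one (1.45%).

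Among HSP70 proteins, Hspa1a, the classic inducible form, had the largest ratio of all members. Its intensity was 281.1 at d0, 1389.0 at d1, then 666.1, 581.2, 533.4 and 533.4, and 412.1 at d14. The d1 value was 4.94-fold that of d0 (log2 2.30), and every later array lay between these. At d14 the gene was still 0.55 above d0, 23.9% of the log2 difference at d1. The slope from d1 to d14 was -0.54 ± 0.0783 (SE) and missed the threshold (limma adjusted p 0.0603).

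Hspa1l, an HSP70 gene best known from the testis and lying next to Hspa1a on the chromosome, took another course. Its intensity was 1021.2 at d0, 1851.5 at d1, then 2018.1, 2259.7, 2159.5 and 2286.6, and 2184.2 at d14. All later arrays were above d0, and all after d1 were above d1. It was the only member still 2-fold above d0 at d7 and at d14 (2.14-fold at d14). Its promoter window held none of the searched spellings. Hspa8, the constitutive cytosolic HSP70, had intensities of 8374.6 at d0, 11959.8 at d1, then 10754.9, 10361.2, 9703.6 and 9626.5, and 9589.2 at d14. It was thus highest at d1, by 0.51, and its 3 rows gave 0.51 to 0.54. The remaining HSP70 genes, Hspa2 and Hspa14, were higher at d1 by 0.094 and 0.11.

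HSP110 proteins are nucleotide exchange factors of HSP70. Hsph1 (HSP105) had intensities of 352.3 at d0, 1192.4 at d1, then 814.5, 664.7, 613.9 and 551.5, and 535.8 at d14. Every array after d1 was lower than the one before, and d14 was still 0.60 above d0. Hspa4 had 1074.1, 1747.8, 1330.1, 1254.1, 1237.0, 1254.5 and 1166.3 on the arrays in the same order. Its ratio at d1 was 0.70 and at d3 0.31. Hspa4l, which also belongs here, was 0.52 above d0 at d1.

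Hsp90aa1, the stress-inducible cytosolic HSP90, had intensities of 671.7 at d0, 1969.3 at d1, then 1136.0, 872.6, 766.6 and 774.5, and 695.4 at d14. It was 2.93-fold d0 at d1 and 0.050 above d0 at d14, with 3.22% of the d1 difference left. The 3 rows of the gene gave d1 ratios between 1.52 and 1.59, and d14 ratios of 0.050, 0.19 and 0.039, which leave 3.22%, 12.2% and 2.54%.

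The HSP90 co-chaperones were also highest at d1. Chordc1 (CHORDC1, also known as morgana), which binds HSP90, had 569.6 at d0, 1389.5 at d1, then 1199.5, 1236.5, 960.7 and 1293.7, and 1047.9 at d14. Its values after d1 moved up and down rather than down in order, and at d14 it kept 68.4% of the d1 difference, the most of the 9 genes past 2-fold at d1. Stip1 (HOP), which links HSP70 to HSP90, had 1106.0 at d0, 1937.1 at d1, then 1637.1, 1503.6, 1444.5 and 1410.1, and 1344.6 at d14. Each array after d1 was below the one before. Ahsa1 (AHA1), which stimulates the HSP90 ATPase, was 0.58 above d0 at d1 and 0.19 at d14.

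**Figure D4:**
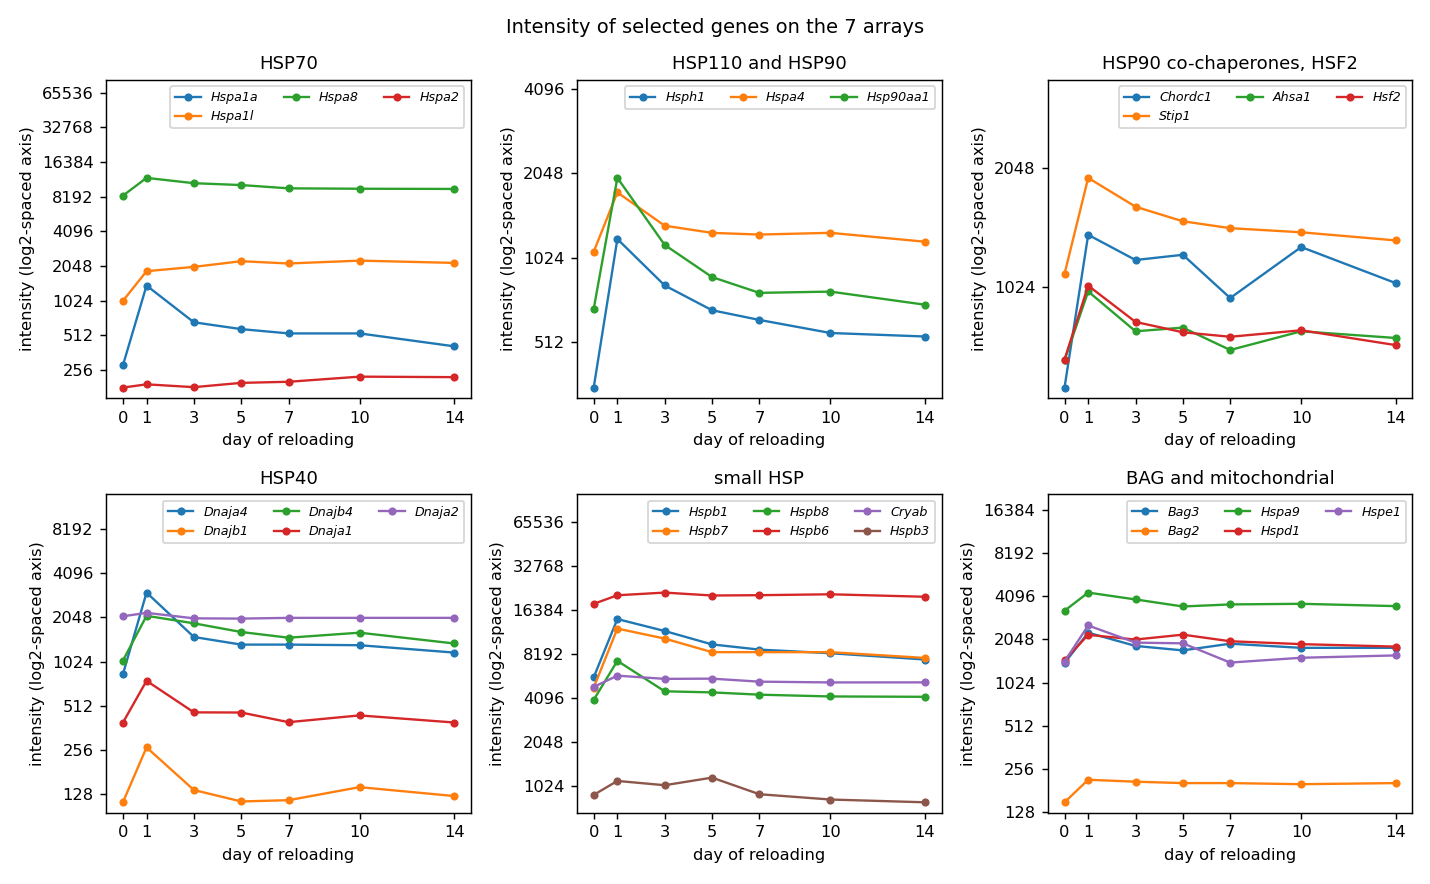
Intensity (log2-spaced axis) against day of reloading for genes of each family, with 1 point per array and lines joining the days. Levels of different genes cannot be compared, since each is measured by its own probes. Most lines are highest at d1, while Hspa1l is highest at d10 (2286.6) and Hspb6 at d3 (21600.8).

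The d1 ratios of the HSP40 genes ran from 0.051 to 1.85. Dnaja4 had intensities of 837.9 at d0, 3026.8 at d1, then 1506.7, 1336.8, 1336.8 and 1324.1, and 1179.5 at d14. It was 3.61-fold d0 at d1, and at d14 0.49 above d0. Dnajb1 (HSP40), the partner of inducible HSP70, had 112.3, 266.1, 136.2, 113.8, 116.1, 142.5 and 123.9 from d0 to d14. The values at d0, d5, d7 and d14 are below the array medians, which include both reference days, and the d1 value stood alone. Dnajb4 had 1038.8, 2101.6, 1867.3, 1629.4, 1490.0, 1612.4 and 1360.8, and was between 0.39 and 0.85 above d0 from d3 on. Dnaja2, a constitutive J-protein, had 2086.1, 2201.1, 2019.9, 2011.3, 2035.1, 2035.1 and 2035.1, with d1 farthest from d0, at 0.077. The other HSP40 genes were 0.95 (Dnaja1), 0.66 (Dnajb2), 0.26 (Dnajb6, below the filter) and 0.051 (Dnajb5, -0.035 after quantile normalization) above d0 at d1. The 2 rows of Dnaja1 gave 0.95 and 0.53.

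The genes past 2-fold at d1 differed in the share of the d1 difference that was left at d3. These shares come from single arrays and have no replicate error, so differences in speed were not tested. At d3, Dnajb1 kept 22.4% of its log2 difference to d0, Dnaja4 45.7%, Hsp90aa1 48.9% and Hspa1a 54.0%. Hsph1 kept 68.7%, Hspb1 79.5%, Hspb7 83.1%, Dnajb4 83.2% and Chordc1 83.5%. With d14 as the base, Dnajb1 kept 12.4%, Dnaja4 26.0%, Hspa1a 39.5%, Hsp90aa1 47.1%, Chordc1 47.9%, Hsph1 52.4%, Hspb7 65.9%, Hspb1 70.4% and Dnajb4 72.8%. Dnajb1 was lowest and Dnajb4 among the highest on both bases, while Chordc1 moved from the highest to the middle. The d0 and d14 values of Dnajb1, on which its shares rest, were below the array medians.

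Among small HSPs, Hspb1 and Hspb7 stood out at d1. Hspb1 (HSP25), an actin-protecting holdase, had intensities of 5667.9 at d0, 14219.7 at d1, then 11773.0, 9527.6, 8776.3 and 8286.8, and 7507.4 at d14. Each array after d1 was below the one before, and the d1 value was 2.51-fold that of d0. Hspb7, a heart and muscle small HSP, had 4813.6 at d0, 12233.9 at d1, 10446.3 at d3, 8430.5 at d5, d7 and d10 and 7694.4 at d14. It was 2.54-fold d0 at d1 and kept 0.68 at d14. The equal values are in the deposited table: 29.3% of all rows hold the same value on at least 3 arrays, and so do 4 of the 33 genes (Hspb7, Dnaja2, Dnajb5 and Bag2). Hspb6 (HSP20) had 18078.7, 20702.3, 21600.8, 20624.9, 20731.0, 21026.2 and 20218.7, with all later arrays between 0.16 and 0.26 above d0. Hspb8, the partner of BAG3, was 0.89 above d0 at d1 and 0.19 at d3, and Hspb2, Cryab (alpha B-crystallin) and Hspb3 were 0.43, 0.26 and 0.32 at d1. Hspb3 was the only small HSP below d0 later, by -0.11 at d10 and -0.17 at d14.

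The BAG proteins are exchange factors of HSP70. Bag3, which with HSPB8 marks damaged Z-disc proteins for autophagy, had 1401.3 at d0, 2282.8 at d1, then 1845.2, 1717.3, 1912.6 and 1789.2, and 1789.2 at d14. Its ratio was 0.70 at d1 and between 0.29 and 0.45 afterwards. Bag2 was between 0.42 and 0.52 above d0 on all later arrays.

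The mitochondrial chaperones fold proteins imported into the matrix. Hspa9 (mortalin) had 3247.9 at d0, 4352.4 at d1, then 3897.1, 3480.6, 3597.3 and 3633.4, and 3500.6 at d14, a ratio of 0.42 at d1. Hspd1 (HSP60) and Hspe1 (HSP10), which form the chaperonin together and share a promoter region, were 0.59 and 0.84 above d0 at d1. At d7 Hspd1 was still 0.44 above d0, while Hspe1 was at -0.024 (0.014 with the mean of its rows). The 2 rows of Hspd1 gave 0.59 and 0.79 at d1.

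Of the heat shock factors, Hsf2 had 670.8, 1032.7, 835.6, 786.7, 766.3, 796.0 and 729.8 from d0 to d14. It was highest at d1, by 0.62. Hsf1 was not measured here.

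The median d1 ratio by family was 0.51 for 5 HSP70 genes, 0.70 for 3 HSP110 genes, 0.81 for 3 HSP90 co-chaperones, 0.80 for 8 HSP40 genes, 0.43 for 7 small HSPs, 0.61 for 2 BAG genes and 0.59 for 3 mitochondrial genes. Hsp90aa1 stood alone for HSP90, with 1.55. At d14 the medians were 0.30, 0.27, 0.28, 0.22, 0.16, 0.40 and 0.14 in the same order. With d14 in place of d0 as the reference, the d1 medians were 0.098, 0.58, 0.41, 0.50, 0.49, 0.21 and 0.31, again in this order. The order of the families at d1 thus depended on the reference. Among these families, small HSPs had the lowest d1 median against d0, and HSP70 genes had the lowest against d14. The families were not tested against each other, and with so few genes each median rests on few values.

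**Figure D5:**
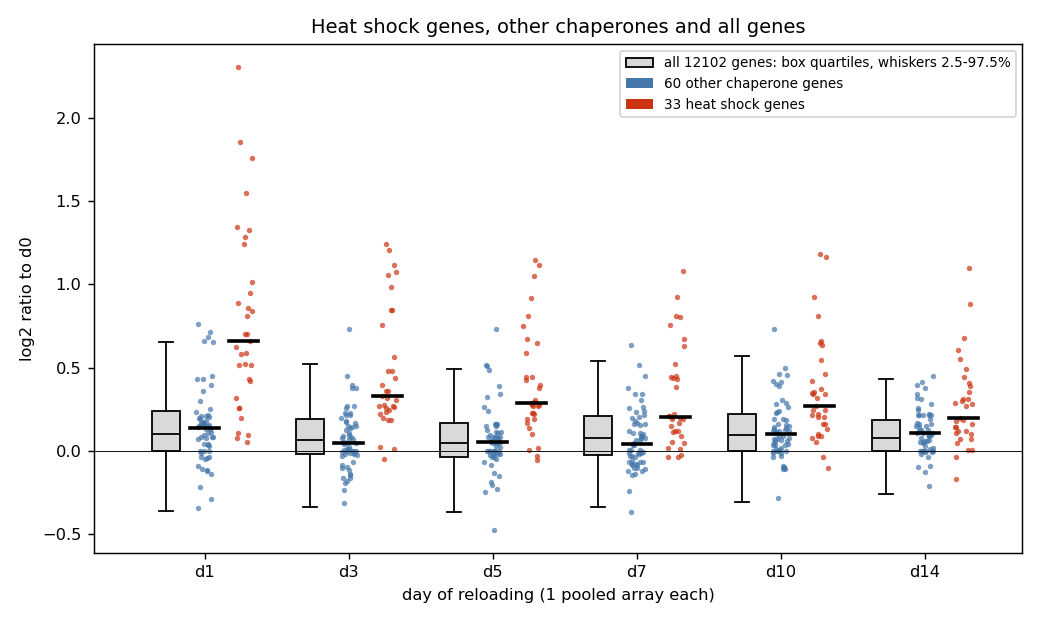
Log2 ratio of intensity to d0 on each later day for all genes past the filter (grey boxes with quartiles and whiskers that leave out the outermost 2.5% on either side), 60 other chaperone genes with a row (blue) and the 33 measured heat shock genes (red), with bars at the medians. The red bar is at 0.66 at d1 and 0.20 at d14, above the blue bar on every day.

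As background for these genes, 62 other chaperones and partners were taken (further HSP90 and HSP70 co-chaperones, J-proteins, distant HSP70 and small HSP genes, mitochondrial folding and protease genes, Hsf4, Hsf5, Hsbp1 and ubiquitin genes), of which 58 passed the filter. None was 2-fold from d0 in either direction on any day. Such ratios were rare among all genes past the filter: at d1, 0.653% rose and 0.372% fell that far. Finding none among 58 genes thus does not set these chaperones apart. This list, too, was chosen with earlier results of these data known. The median ratio at d1 of the 60 with a row was 0.14, with 0.76 for Ptges3 (p23), an HSP90 co-chaperone, 0.71 for Hspa13, 0.68 for St13 (HIP) and 0.66 for Ppid (cyclophilin 40). The 2-unit promoter spelling was in 6 of 48 of them (12.5%). Among the members in the promoter table, it was in 6 of 8 that were at least 2-fold above d0 at d1 and in 8 of 20 that were not. Of genes past the filter 13.6% held it. The 2 of these 8 without it were Hspb7 and Dnajb1, and Hsp90aa1, also past 2-fold, was not in the promoter table. The 3-unit spelling was in 2 of the 8 and in 3 of the 20. A link between spelling and d1 ratio was not tested.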

How the data were processed

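Per time point, left plantaris RNA of 6 mice was combined and hybridised to 1 Affymetrix array, per the labels and the design text. The amount of input RNA is unsettled: 100 ng in the design text, 250 ng in the labelling protocol. The authors deposited linear intensities for each transcript cluster; array medians are near equal. The submitters' processing notes name Partek without a step or version. How values were summarized and normalized, and on which genome build, was not given in the sources used here. Detection above background was not used.

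Analyses used log2 intensity (pseudocount 0). Gene names came from rows with a single symbol in the platform annotation (21789 of 35556 rows), and all 33 measured members matched RefSeq by Entrez ID. Ratios of 1 array to 1 array have no test. Trends came from limma 3.58.1 under R 4.3.3 (lmFit, eBayes with an intensity trend) over all 12102 genes past the filter, two-sided, with Benjamini-Hochberg adjustment at 0.05. The error of this fit includes any departure from a straight line. The fit was also run on simulated data with independent normal noise, and the outcome of that run is not reported here. Ratios, counts and figures were made in Python 3.11.15 (pandas 2.3.3, numpy 2.4.6, matplotlib 3.10.9).

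All 7 values are given for members at least 2-fold from d0 or d14 on any day, the member of highest mean intensity in each family, the members whose trend passed, and Hsf2. Of other chaperones, the 4 with the largest d1 ratio are named. Ratios of further members are given by family. The printed promoter stretches, the shares left at d3 and the split of promoters by d1 ratio were chosen after the values were seen. The members and lists were chosen with earlier results of these data known.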

Additional observations from a re-analysis of the deposited data

How the results depend on the processing

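Each value was recomputed with 1 choice changed. With the mean of the 6 other arrays in place of d0 as the reference, the members' median was 0.41 at d1. It was then 0.094, 0.019, -0.055 and -0.013, and -0.074 at d14, negative from d7 on. For the days after d1 this reference holds the d1 array, so a high d1 lowers their values. They are thus another quantity than the ratios to d0 and no check of their sign. With this reference, 5 members were 2-fold higher at d1 and 0 on each other day. The mean over members in place of the median was 0.78 at d1, 0.48 at d3, 0.40 at d5 and 0.32 at d7, and 0.50 for d1 against d14. At 1.5-fold, 19, 9, 9, 7, 7 and 4 members were above d0 from d1 to d14 (3.45%, 1.65%, 1.36%, 1.74%, 2.28% and 0.678% of all genes), and at 3-fold 3 at d1 (0.207%) and 0 on each other day (0.0% to 0.19%). With the mean of a gene's rows the d1 median was 0.70 for HSP40 and 0.69 for the mitochondrial genes.

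Of the falls over d1 to d14, 7 members were called after quantile normalization, 8 with a filter at percentile 75, 1 with no filter, 1 without the intensity trend in eBayes, and 0 with time as day or as rank. Over all genes and both directions these settings called 141, 162, 3, 4, 0 and 1, against 43 with the settings of the report. Leaving out 1 time point gave 0 to 1: without d5 it was Hspb1, and without d1, d3, d7, d10 or d14 none. Hspb1 was called in 8 of 15 alternatives (limma adjusted p 0.00139 to 0.303), Hsph1 in 5 (0.00905 to 0.368), Hsp90aa1 in 4 (0.0149 to 0.392) and Stip1 in 4 (0.0238 to 0.368), with a negative slope in all 15. Over d0 to d14 leaving out a time point gave 0 to 4 falls, with 4 without d0, which is the d1 to d14 fit. The cause of the changes was not tested.

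Of 396 recomputed ratios of single members, 392 moved by less than 0.1. Among them 2 small ratios changed sign, both after quantile normalization: Dnajb5 from 0.051 to -0.035 (d1 to d0) and Dnaja1 from 0.0029 to -0.030 (d14 to d0). The other 4 moved by more and kept their sign: with the mean of rows, Hspd1 to 0.69 and Dnaja1 to 0.74 and 0.69, and with a pseudocount of 16, Dnajb1 to 1.14. No paired analysis was possible because the labels give no replicate numbers and each day is 1 array.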
